A study of Homo sapiens with 6 samples.

Results

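The genes described here are 39 enzymes, carriers and binding proteins of fatty acid synthesis and fatty acid oxidation, chosen by name from the 61859 genes of the deposited table. All 39 names were found, none of them more than once. RNA was sequenced from OSC19SSZR, a human oral squamous cell carcinoma line with resistance to sulfasalazine, an inhibitor of cystine uptake. One set of samples received FOXA1 siRNA (n = 3) and the other control siRNA (n = 3), both by lipid transfection, and RNA was taken after 48 h. Both sets share the resistant line and the transfection, so neither stands for untreated or drug-sensitive cells. FOXA1 is a forkhead transcription factor that can bind closed chromatin. The comparison asked how gene expression in the resistant cells differs after FOXA1 knockdown.

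Cells build fatty acids in the cytosol from acetyl-CoA. Acetyl-CoA carboxylase makes malonyl-CoA, fatty acid synthase extends the chain to palmitate, and elongases and desaturases in the endoplasmic reticulum then lengthen it and add double bonds. For oxidation, fatty acids are joined to CoA, carried into mitochondria on carnitine and shortened in repeated cycles whose electrons pass through the electron transfer flavoprotein to the respiratory chain. Malonyl-CoA blocks the entry enzyme CPT1, which keeps both directions from running at full rate together. Peroxisomes shorten very long and branched chains with a separate set of enzymes.

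FOXA1 itself (ENSG00000129514; GRCh38 chromosome 14, 37589984 to 37596059, minus strand) had 247, 192 and 189 normalized counts in the FOXA1 siRNA samples, against 1477, 1378 and 1459 in the control siRNA samples. Every knockdown sample lay below every control sample, at 14.5% of the control mean (log2 fold change -2.79 ± 0.09 SE, limma adjusted p = 3.32e-18). A normalized count is a gene's read count divided by a scaling factor for its library. Reads per library ranged from 16510125 to 25732569 in the FOXA1 siRNA samples and from 17286040 to 19233157 in the control siRNA samples. All 10 genes listed as markers of squamous or other epithelium were above a mean of 10, from KRT14 at 38.8 to KRT5 at 29793. They summed to 59474 to 62309 normalized counts with FOXA1 siRNA and to 53379 to 55770.1 with control siRNA. Of these 10, KRT17 (log2 fold change 1.01), SFN (1.14), DSG3 (0.65) and EPCAM (0.14) rose, and TP63 (-0.40) and KRT5 (-0.18) fell. Above a mean of 10 were 0 of 8 adipocyte and hepatocyte markers and 0 of 5 leukocyte markers. The adipocyte and hepatocyte markers together summed to 1.07 to 5.31 normalized counts with FOXA1 siRNA and to 0.951 to 6.28 with control siRNA. Of 3 endothelial markers only CDH5 was above 10, at 278 to 298 with FOXA1 siRNA and 537 to 565 with control siRNA. Of 6 fibroblast markers only COL1A1 was, and their sum was 92.5 to 137 with FOXA1 siRNA and 148 to 165 with control siRNA. The part of these markers in the results below was not tested. In bulk RNA, fewer cells of a type and less RNA per cell cannot be told apart. Nothing in the labels says that the replicates came from separate cultures, so each p-value reflects only the scatter among the 6 samples, and that scatter may be technical.

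Of the 39 genes, 38 were expressed enough to be tested (mean of at least 10 normalized counts), and no tested gene had a group mean under 10. Of these, 14 rose, 10 fell and 14 did not pass the threshold (limma on log2 of the normalized count + 1, Benjamini-Hochberg adjusted p under 0.05 over all 18460 genes tested). Over all genes tested 26.8% rose and 25.0% fell, so 51.8% were called, and the median log2 fold change was 0.0011 for the 38 genes and 0.0039 for all genes. For 26 of the 38 genes no sample of either group reached into the range of the other, where the share over all genes was 57.6%. Changes of at least 1.5-fold were found for 8 genes, of which FABP5 and ELOVL7 rose and MLYCD, ACACB, ACOX3, CPT1A, FADS1 and ACAA2 fell. Over all genes 7.16% rose and 12.0% fell by that much. With libraries scaled to equal totals the split among the 38 genes was 11 higher and 13 lower, and over all genes it was 3590 higher and 5972 lower, against 4954 and 4617 with the authors' scaling. No called gene among the 38 changed sign under any scaling or left-out sample. Without FOXA1 siRNA replicate 2 the count of falls was 6 in place of 10.

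Genes of the pathway moved in both directions. The 2 acetyl-CoA carboxylases changed in opposite directions while the other 3 synthesis genes did not pass, FABP5 and ACSL1 were higher, CPT1A and MLYCD, which govern entry into mitochondria, were lower, and 6 enzymes of mitochondrial oxidation were higher. By role, 1 gene rose and 1 fell of 5 for synthesis, 2 rose and 0 fell of 4 for elongation, and 2 rose and 1 fell of 3 for desaturation. Both tested genes of activation and binding rose. Of the 5 genes for the carnitine shuttle and its malonyl-CoA control, 0 rose and 3 fell, whereas 6 rose and 2 fell of the 11 for mitochondrial oxidation. For electron transfer 1 rose and 1 fell of 3, and for peroxisomal oxidation 0 rose and 2 fell of 5. Taking all 24 oxidation genes as a single list, 7 rose and 8 fell. Over all genes tested 26.8% rose and 25.0% fell, and the counts by role are descriptions to be read against these shares.

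**Figure D1:**
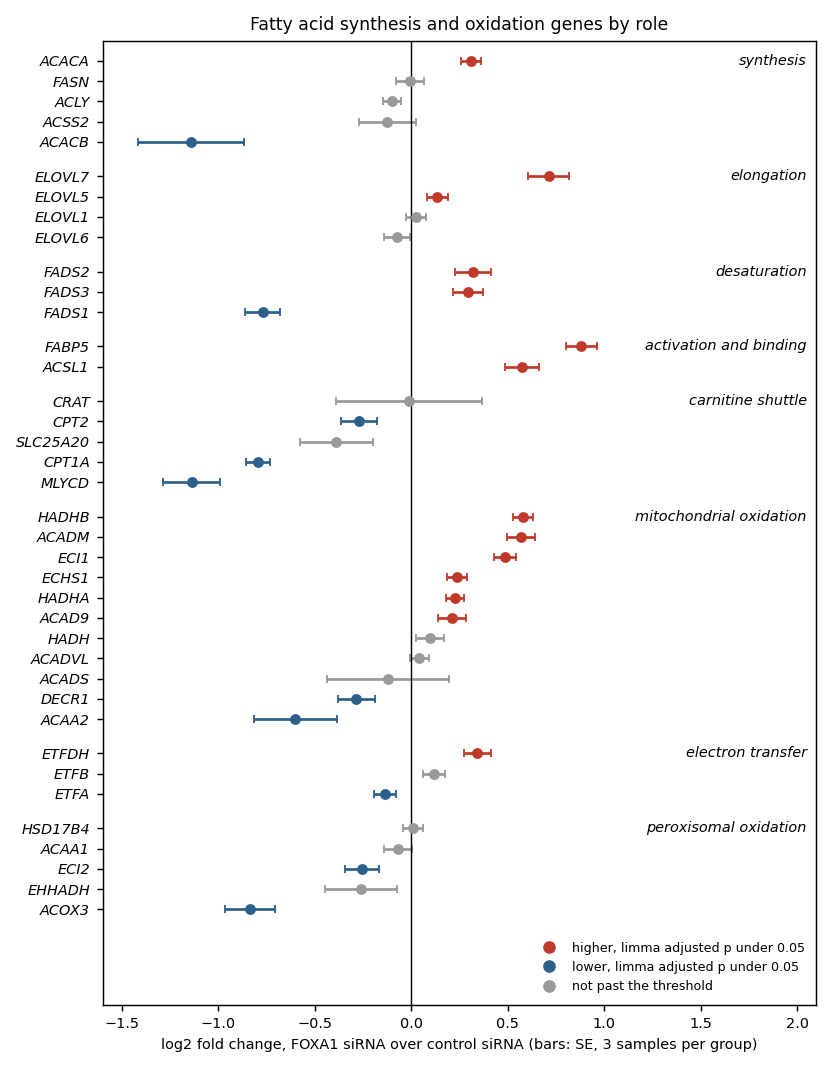
Log2 fold change (FOXA1 siRNA over control siRNA, horizontal axis) of the 38 tested genes, grouped by role on the vertical axis, with standard errors as bars and 3 samples per group. Red marks genes that rose, blue those that fell and grey those not past the threshold, and the carnitine shuttle genes lie at or below 0 while most mitochondrial oxidation genes lie above it.

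Promoter sequence is shown for 3 of the genes whose RNA changed. RefSeq promoter windows, from 250 bases before to 50 bases after a gene's start (GRCh38.p14), were at hand for 32 of the 39 genes. HADHB is given because its start lies 307 bases from that of HADHA on the opposite strand, so the subunits of 1 enzyme share an upstream region. ACOX3 is given for a forkhead word, and ACSL1 for the word of the sterol regulatory element. Each sequence is the 250 bases before the start, 5′ to 3′ on the gene's strand. The first is chr2:26244689-26244938 on the plus strand, with the 194 bases that also belong to the HADHA window in capitals.
HADHB: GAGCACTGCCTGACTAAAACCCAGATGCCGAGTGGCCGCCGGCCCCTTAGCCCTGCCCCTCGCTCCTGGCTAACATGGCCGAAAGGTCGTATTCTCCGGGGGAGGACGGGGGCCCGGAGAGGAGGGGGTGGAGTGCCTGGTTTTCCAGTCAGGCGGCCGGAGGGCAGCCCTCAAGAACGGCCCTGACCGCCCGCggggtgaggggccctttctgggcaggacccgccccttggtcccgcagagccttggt
The second is chr4:8440724-8440973 on the minus strand, with the word TGTTTGC in capitals, beginning 205 bases before the start, and is 1 of 2 windows of the gene.
ACOX3: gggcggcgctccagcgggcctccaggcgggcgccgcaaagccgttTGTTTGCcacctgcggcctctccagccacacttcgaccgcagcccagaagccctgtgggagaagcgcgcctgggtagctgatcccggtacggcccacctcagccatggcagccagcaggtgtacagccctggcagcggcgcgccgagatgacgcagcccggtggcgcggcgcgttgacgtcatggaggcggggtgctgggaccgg
The third is chr4:184805554-184805803 on the minus strand, with a match to TCACNCCAC, read on the opposite strand, in capitals. It is 1 of 5 RefSeq windows of ACSL1, shown because it holds the word, and its start at 184805553 lies inside the gene, whose 5′ end in GENCODE release 29 is at 184826818.
ACSL1: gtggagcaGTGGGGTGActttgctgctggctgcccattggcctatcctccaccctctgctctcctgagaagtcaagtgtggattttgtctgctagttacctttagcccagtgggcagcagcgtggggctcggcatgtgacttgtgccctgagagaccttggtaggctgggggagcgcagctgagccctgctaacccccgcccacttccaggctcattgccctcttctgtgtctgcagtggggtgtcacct

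Both strands of the windows were searched for 4 words. The forkhead word TGTTTGC was found in ACOX3 and, 37 bases after the start, in ACACB, and 3.89% of all 35116 RefSeq windows hold it. The related forkhead word TGTTTAC was found in ELOVL6, and 3.42% of all windows hold it. The 32 genes have 48 windows, since some have several starts, and 3 of these 48 (6.25%) hold either word, against 7.17% of all windows. The sterol regulatory element word TCACNCCAC was found in ACSL1, and 1.13% of all windows hold it. The E-box CACGTG was found in ELOVL5 and ACAD9, and 7.26% of all windows hold it. The matches of TGTTTAC and TGTTTGC were in different genes, and a match describes only the letters in a window.

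Of the 5 genes for making palmitate, FASN, ACLY and ACSS2 did not pass. FASN, the fatty acid synthase, had 14845, 14808 and 12565 normalized counts in the FOXA1 siRNA samples, against 12878, 14852 and 14598 in the control siRNA samples. Each group had 1 lower sample and the groups overlapped, with a log2 fold change of -0.01 ± 0.07 (SE, limma adjusted p = 0.96). ACLY, which splits citrate to supply cytosolic acetyl-CoA, had 3736, 3750.3 and 4016 in the FOXA1 siRNA samples, against 4078, 4041 and 4204 in the control siRNA samples. Every knockdown value was below every control value, but the difference of -0.10 ± 0.05 on the log2 scale did not pass (limma adjusted p = 0.0824). ACLY passed as lower without FOXA1 siRNA replicate 3 (-0.13, adjusted p = 0.0122), with equal library totals (-0.20, adjusted p = 8.94e-04), and after quantile (-0.23) and cyclic loess (-0.25) normalization. ACSS2, which makes acetyl-CoA from acetate, had 134 ± 9.38 and 148 ± 36.1 normalized counts with FOXA1 siRNA and with control siRNA (SD, n = 3 each) and did not pass (log2 fold change -0.12).

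The carboxylases moved apart. ACACA (chromosome 17, 37084988 to 37406818, minus strand), the cytosolic acetyl-CoA carboxylase that feeds synthesis, had 3098, 3230.5 and 3376 normalized counts in the FOXA1 siRNA samples, against 2499, 2624 and 2707 in the control siRNA samples. All 3 knockdown samples were higher than all 3 controls (log2 fold change 0.31 ± 0.05, limma adjusted p = 9.77e-06). ACACB (chromosome 12, 109116595 to 109268226, plus strand), the mitochondrial carboxylase whose malonyl-CoA restrains CPT1, had 25.7, 25.8 and 13.0 in the FOXA1 siRNA samples, against 42.8, 50.4 and 47.1 in the control siRNA samples. It fell by 1.14 ± 0.27 on the log2 scale (limma adjusted p = 9.33e-04), and FOXA1 siRNA replicate 3 was the lowest of the 6 samples. ACACB lies under the mean of 50 set for genes given in full and was chosen after its values were seen. Per kilobase of transcript, ACACA stood at 339 normalized counts with FOXA1 siRNA and 273 with control siRNA, and ACACB at 2.30 and 5.00, so ACACA was by far the more abundant in both groups. The log2 ratio of ACACB to ACACA within a sample was -6.91, -6.97 and -8.02 in the FOXA1 siRNA samples, against -5.87, -5.70 and -5.85 in the control siRNA samples. The groups did not overlap, with a difference of -1.49 (exact two-sided permutation p = 0.1, the smallest that 3 against 3 samples allow).

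Among the 4 elongases ELOVL7 had the largest change. ELOVL7, which lengthens long saturated chains, had 313, 272 and 283 normalized counts in the FOXA1 siRNA samples, against 184, 190 and 157 in the control siRNA samples. The groups were clearly apart (log2 fold change 0.71 ± 0.11, limma adjusted p = 2.41e-06). ELOVL5, which lengthens polyunsaturated chains, had 2822, 2919 and 3283 in the FOXA1 siRNA samples, against 2756, 2718 and 2731 in the control siRNA samples. Its rise was small (0.13 ± 0.05, limma adjusted p = 0.0381) and was highest in FOXA1 siRNA replicate 3. Without that sample it was 0.07 (adjusted p = 0.213), without control siRNA replicate 1, 2 or 3 it also did not pass (adjusted p = 0.0673, 0.101 and 0.0934), and with equal library totals it was 0.04. ELOVL1, which serves very long saturated chains (log2 fold change 0.02), and ELOVL6, which takes palmitate to stearate (-0.07), did not pass. Per kilobase, ELOVL1 and ELOVL5 were at 1321 and 1064 normalized counts with FOXA1 siRNA and at 1299 and 967 with control siRNA. ELOVL6 was at 102 with FOXA1 siRNA and 107 with control siRNA, and ELOVL7 at 72.5 with FOXA1 siRNA and 44.2 with control siRNA, so ELOVL7 remained the lowest of the 4 after its rise.

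Desaturation gave a split between neighbouring genes. FADS1, the delta-5 desaturase, and FADS2, the delta-6 desaturase, act in turn in making arachidonic acid and other highly unsaturated fatty acids. FADS1 (chromosome 11, 61799625 to 61829318, minus strand) had 282, 247 and 256 normalized counts in the FOXA1 siRNA samples, against 496, 430 and 417 in the control siRNA samples. Its knockdown samples were all lower, at 58.5% of the control mean (log2 fold change -0.77 ± 0.09, limma adjusted p = 5.25e-08). FADS2 (chromosome 11, 61792980 to 61867354, plus strand) had 407, 392 and 389 in the FOXA1 siRNA samples, against 275, 317 and 366 in the control siRNA samples. It was higher in each knockdown sample, by 0.32 ± 0.09 on the log2 scale (limma adjusted p = 0.00579), and the control samples were the more spread. Without control siRNA replicate 1, the lowest control, the change was 0.22 (adjusted p = 0.0675).

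The ratio of FADS1 to FADS2 within a sample makes the split independent of the scaling between libraries. On the log2 scale it was -0.53, -0.67 and -0.60 in the FOXA1 siRNA samples, against 0.85, 0.44 and 0.19 in the control siRNA samples. Every knockdown sample lay below every control sample, with a difference of -1.09 (exact two-sided permutation p = 0.1). The ratio is not scaled by transcript length (4525 bases for FADS1 and 3630 for FADS2), so its sign does not rank the genes. Per kilobase of transcript, FADS1 stood at 57.9 normalized counts with FOXA1 siRNA and 99.0 with control siRNA, and FADS2 at 109 with FOXA1 siRNA and 87.9 with control siRNA. FADS1 lies within FADS2 on the opposite strand in GENCODE release 29. The sources used here do not say whether reads were counted by strand, so some reads of either gene could have been assigned to the other. FADS2 also overlaps FEN1 on its own strand, where counting by strand would not separate them. FADS3, another desaturase of the same cluster, had 482, 479 and 470 in the FOXA1 siRNA samples, against 382, 377 and 407 in the control siRNA samples. It rose by 0.29 ± 0.08 (limma adjusted p = 0.00238), and its log2 ratio to FADS2 overlapped between the groups (difference -0.03, exact permutation p = 0.9).

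**Figure D2:**
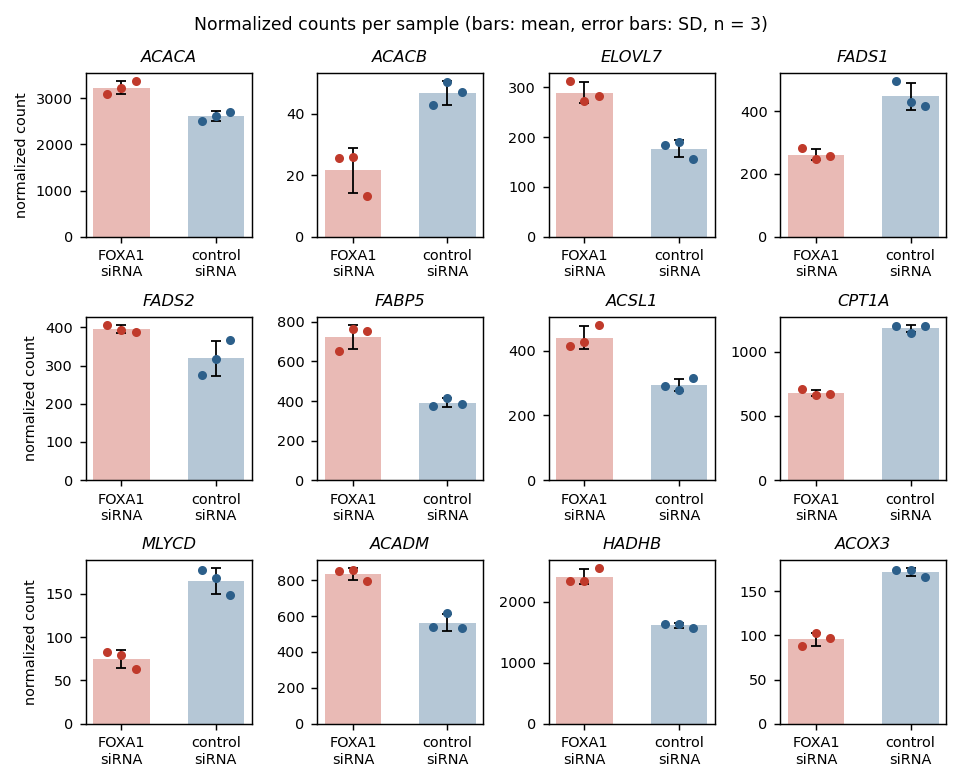
Normalized counts (vertical axes, each from 0) of 12 genes in the 3 FOXA1 siRNA and the 3 control siRNA samples, with points for samples, bars for means and error bars for SD. CPT1A, MLYCD, ACOX3, ACACB and FADS1 lie lower in all FOXA1 siRNA samples, and the other 7 genes lie higher in all of them. The 12 shown are all called genes without overlap, whereas the groups overlapped for 12 of the 38 tested genes.

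Both tested genes for binding and activation among the 38 were higher. FABP5, a cytosolic carrier of fatty acids that is abundant in squamous epithelium, had 652, 764 and 756 normalized counts in the FOXA1 siRNA samples, against 376, 417 and 383 in the control siRNA samples. The groups were far apart (log2 fold change 0.88 ± 0.08, limma adjusted p = 3.07e-10). FABP5 has several processed pseudogenes, so the assignment of its reads is uncertain. The listed epithelial markers moved as well, with 4 of 10 higher and 2 lower as given above, and their part in the rise of FABP5 was not tested. ACSL1, a ligase that joins long-chain fatty acids to CoA, had 413, 426 and 480.4 in the FOXA1 siRNA samples, against 291, 278 and 314 in the control siRNA samples. All knockdown samples were higher (log2 fold change 0.58 ± 0.09, limma adjusted p = 3.41e-06). ACSL5, a mitochondrial relative, was too low to test, at 5.36, 1.52 and 4.74 in the FOXA1 siRNA samples, against 10.5, 6.05 and 3.14 in the control siRNA samples.

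RNA for the entry step into mitochondria was lower. CPT1A (ENSG00000110090; chromosome 11, 68754620 to 68844410, minus strand), the rate-setting carnitine palmitoyltransferase of the outer membrane, had 707, 666 and 669 normalized counts in the FOXA1 siRNA samples, against 1198, 1147 and 1199.8 in the control siRNA samples. Both groups were tight and well apart, with 57.6% of the control level left (log2 fold change -0.79 ± 0.06, limma adjusted p = 2.51e-11). GENCODE release 29 places no gene on the opposite strand of CPT1A. CPT1B, a relative outside the 39 genes, had a smaller fall, with 449 ± 39.2 and 541 ± 25.2 with FOXA1 siRNA and with control siRNA (SD, n = 3 each). Its log2 fold change was -0.27 ± 0.08 (limma adjusted p = 0.00577). Per kilobase of transcript, CPT1A stood at 130 with FOXA1 siRNA and 226 with control siRNA, and CPT1B at 169 and 203. CPT1B overlaps CHKB-CPT1B on its own strand, so its reads are uncertain. MLYCD (chromosome 16, 83899126 to 83927026, plus strand), the decarboxylase that removes malonyl-CoA, had 82.5, 78.9 and 62.9 in the FOXA1 siRNA samples, against 178, 168 and 149 in the control siRNA samples. All knockdown samples were under all controls, at 45.3% of the control mean (log2 fold change -1.14 ± 0.15, limma adjusted p = 2.41e-07). ACACB, which makes the malonyl-CoA that MLYCD removes, was lower too, as given above.

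The rest of the shuttle changed less. CPT2, which returns the fatty acid to CoA inside the mitochondrion, had 325, 304 and 378 in the FOXA1 siRNA samples, against 425, 366 and 423 in the control siRNA samples. The groups overlapped, and CPT2 was the only called gene of the 38 for which they did (log2 fold change -0.27 ± 0.09, limma adjusted p = 0.0158). It did not pass without FOXA1 siRNA replicate 2 (-0.20, adjusted p = 0.0999), without control siRNA replicate 1 (-0.23, adjusted p = 0.0721) or without control siRNA replicate 3 (-0.24, adjusted p = 0.0681). SLC25A20, the carnitine-acylcarnitine carrier, had 51.5 ± 6.71 and 67.5 ± 6.61 normalized counts with FOXA1 siRNA and with control siRNA (SD, n = 3 each). The groups did not overlap, but the difference of -0.39 ± 0.19 on the log2 scale did not pass (limma adjusted p = 0.0897). CRAT, which handles short chains, had 13.9 ± 4.19 and 13.7 ± 2.13 (SD, n = 3 each) and did not pass. The log2 ratio of CPT1A to CPT2 was 1.12, 1.13 and 0.82 in the FOXA1 siRNA samples, against 1.495, 1.65 and 1.51 in the control siRNA samples. It was lower in every knockdown sample, by 0.52 on average (exact two-sided permutation p = 0.1).

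Inside the mitochondrion 6 of the 11 oxidation genes were higher and 2 lower. Over all genes tested 26.8% rose and 25.0% fell. All 6 that rose had a mean of at least 500, and 42.8% of all genes at that level rose. HADHB (chromosome 2, 26243170 to 26290468, plus strand), the thiolase subunit of the trifunctional protein, had 2334, 2343 and 2554 normalized counts in the FOXA1 siRNA samples, against 1629, 1640.3 and 1567 in the control siRNA samples. All knockdown samples were higher (log2 fold change 0.58 ± 0.05, limma adjusted p = 5.75e-10). HADHA, the partner subunit with hydratase and dehydrogenase activity, had 3022, 2991 and 3087 in the FOXA1 siRNA samples, against 2577, 2553 and 2644 in the control siRNA samples. It also rose without overlap, by a smaller 0.23 ± 0.05 (limma adjusted p = 2.54e-04), and did not pass after cyclic loess normalization (0.10, adjusted p = 0.074). The subunits assemble in equal numbers, and their starts share the upstream bases shown above in capitals. The log2 ratio of HADHA to HADHB was 0.37, 0.35 and 0.27 in the FOXA1 siRNA samples, against 0.66, 0.64 and 0.75 in the control siRNA samples. It was lower in every knockdown sample, with a difference of -0.35 (exact two-sided permutation p = 0.1). HADHA and HADHB overlap at their starts on opposite strands in GENCODE release 29, with the same limit on counting as for FADS1 and FADS2.

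The acyl-CoA dehydrogenases, which open each cycle, are specific for chain length. ACADM, the medium-chain enzyme, had 849, 858 and 795 normalized counts in the FOXA1 siRNA samples, against 539, 616 and 532 in the control siRNA samples. The knockdown group lay wholly above the controls (log2 fold change 0.57 ± 0.07, limma adjusted p = 1.83e-07). ACADVL, the very-long-chain enzyme, had 3543, 3639.5 and 3591 in the FOXA1 siRNA samples, against 3599, 3450.1 and 3411 in the control siRNA samples. The groups overlapped and the difference did not pass (log2 fold change 0.04 ± 0.05). ACADS, the short-chain enzyme, had 19.3 ± 3.89 and 21.1 ± 4.59 with FOXA1 siRNA and with control siRNA (SD, n = 3 each) and did not pass either. Per kilobase of transcript, ACADVL led at 1546 with FOXA1 siRNA and 1501 with control siRNA, ACADM was at 318 and 215, and ACADS at 9.92 and 10.8. Whether the fold changes of ACADM and ACADVL differed was not tested. ACAD9, a relative that is also an assembly factor of respiratory complex I, had a mean of 814 ± 58.8 with FOXA1 siRNA and 703 ± 51.7 with control siRNA (SD, n = 3 each). It passed as higher (0.21 ± 0.07, limma adjusted p = 0.016), but not without FOXA1 siRNA replicate 1 (adjusted p = 0.111), without control siRNA replicate 3 (adjusted p = 0.125) or with equal library totals (adjusted p = 0.204).

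Of the later and auxiliary enzymes, ECI1, an isomerase that prepares unsaturated chains, rose by 0.49 ± 0.06 on the log2 scale (limma adjusted p = 4.33e-08), with 1586 ± 59.1 normalized counts with FOXA1 siRNA and 1131 ± 32.7 with control siRNA (SD, n = 3 each). ECHS1, the short-chain hydratase, rose by 0.24 ± 0.05 (limma adjusted p = 4.97e-04). HADH, the short-chain hydroxyacyl-CoA dehydrogenase, did not pass (0.10 ± 0.07). DECR1, the reductase needed for polyunsaturated chains, had 253, 296 and 282 in the FOXA1 siRNA samples, against 349, 356 and 308 in the control siRNA samples. It was lower in all knockdown samples (-0.28 ± 0.09, limma adjusted p = 0.0133), but did not pass without FOXA1 siRNA replicate 1, control siRNA replicate 1 or control siRNA replicate 2 (adjusted p = 0.0792, 0.0532 and 0.0673). ACAA2, a mitochondrial thiolase, was low, at 38.1 ± 3.27 with FOXA1 siRNA and 58.9 ± 12.1 with control siRNA (SD, n = 3 each). It passed as lower (-0.60 ± 0.21, limma adjusted p = 0.0203), but not without FOXA1 siRNA replicate 2 (adjusted p = 0.0569), without control siRNA replicate 2 (adjusted p = 0.134) or after quantile normalization (adjusted p = 0.117). The 2 thiolases of long and medium chains, HADHB and ACAA2, were therefore called in opposite directions.

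Electrons from the dehydrogenases pass to the flavoprotein ETFA-ETFB and then to ETFDH, its oxidoreductase in the inner membrane. ETFDH had 910, 997 and 1081 normalized counts in the FOXA1 siRNA samples, against 834, 773 and 747 in the control siRNA samples. ETFDH was higher in all 3 knockdown samples (log2 fold change 0.34 ± 0.07, limma adjusted p = 1.66e-04). ETFA had 1780.5, 1862 and 1879 in the FOXA1 siRNA samples, against 2176, 1907 and 1986 in the control siRNA samples. It passed narrowly as lower (-0.13 ± 0.06, limma adjusted p = 0.045), and not in 8 of 16 alternatives, among them those without FOXA1 siRNA replicate 1 or 2 (adjusted p = 0.15 and 0.0625) and without control siRNA replicate 1 or 3 (adjusted p = 0.284 and 0.0743). Without control siRNA replicate 1 the change was -0.08. ETFB had 1313 ± 47.3 with FOXA1 siRNA and 1208 ± 14.5 with control siRNA (SD, n = 3 each) and did not pass (0.12 ± 0.06), except without FOXA1 siRNA replicate 3 (0.14, adjusted p = 0.0453). The log2 ratio of ETFA to ETFB was 0.46, 0.45 and 0.56 in the FOXA1 siRNA samples, against 0.84, 0.68 and 0.71 in the control siRNA samples. The groups did not overlap (difference -0.25, exact two-sided permutation p = 0.1).

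**Figure D3:**
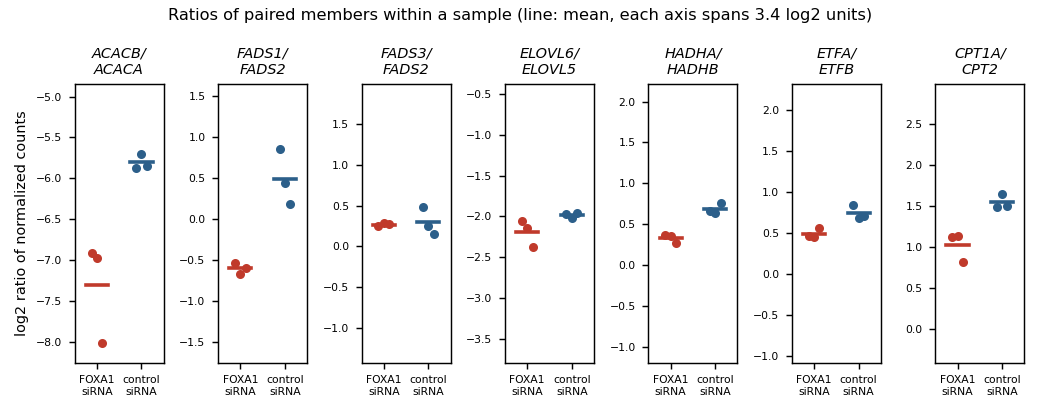
Log2 ratio of normalized counts of 2 genes in the same sample (vertical axes, each spanning 3.4 log2 units) for 7 pairs in the FOXA1 siRNA and control siRNA samples, with points for samples and lines for means. FADS3 over FADS2 overlapped between the groups, and every other ratio was lower in all FOXA1 siRNA samples than in all control siRNA samples.

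In all, 8 ratios of related genes were compared, the 7 plotted and that of ACSL5 to ACSL1. Of these, 6 did not overlap between the groups, and their exact p of 0.1 became 0.133 after Benjamini-Hochberg adjustment over the 8, so none could pass a threshold of 0.05 at this sample size. The log2 ratio of ELOVL6 to ELOVL5 was -2.06, -2.14 and -2.37 with FOXA1 siRNA and -1.97, -2.02 and -1.96 with control siRNA. The groups lay close without overlap (difference -0.21), and FOXA1 siRNA replicate 3 was the lowest. The ratio of ACSL5 to ACSL1 overlapped (difference -1.37, exact two-sided permutation p = 0.2, adjusted p = 0.229).

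Peroxisomal oxidation had its clearest change in a low-level oxidase. ACOX3 (chromosome 4, 8366282 to 8440723, minus strand), an oxidase that begins the breakdown of branched chains, had 87.9, 102 and 97.3 normalized counts in the FOXA1 siRNA samples, against 174, 175 and 166 in the control siRNA samples. All knockdown samples were lower, at 55.9% of the control mean (log2 fold change -0.84 ± 0.13, limma adjusted p = 4.48e-06). ECI2, an isomerase found in peroxisomes and mitochondria, had 433, 366 and 457 in the FOXA1 siRNA samples, against 483, 467 and 545 in the control siRNA samples. It fell by 0.25 ± 0.09 (limma adjusted p = 0.0171), but the change was -0.16 without FOXA1 siRNA replicate 2 (adjusted p = 0.149) and -0.19 without control siRNA replicate 3 (adjusted p = 0.12). HSD17B4, the multifunctional enzyme for branched and very long chains, was the most abundant of the 5 per kilobase (853 with FOXA1 siRNA and 848 with control siRNA). It had 2290.4 ± 128 and 2276 ± 18.1 normalized counts with FOXA1 siRNA and with control siRNA (SD, n = 3 each) and did not pass. The thiolase ACAA1 (log2 fold change -0.07) and the bifunctional enzyme EHHADH (-0.26 ± 0.19) did not pass either.

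The normalized counts of each role group were also summed. The sums hold only the genes listed here and are not scaled by transcript length. Mitochondrial oxidation summed to 15263, 15262 and 15312 in the FOXA1 siRNA samples, against 12863, 12926 and 12700.3 in the control siRNA samples, which is 19.1% more. The 3 knockdown sums lay above all control sums, and ACADVL, which did not pass, gave 25.2% of the total. The carnitine shuttle and its malonyl-CoA control summed to 1184, 1102 and 1184 in the FOXA1 siRNA samples, against 1889, 1761 and 1847 in the control siRNA samples. This sum dropped by 36.9%, below every control, and CPT1A made up 62.3% of it. The shuttle sum leaves out CPT1B, which had a smaller fall, as given above. Activation and binding was 68.5% higher, with FABP5 as 60.0% of the sum. That sum leaves out ACSL3 and ACSF2, acyl-CoA synthetases that fell. ACSL3 averaged 3992 ± 94.3 normalized counts with FOXA1 siRNA and 5690 ± 223 with control siRNA, and ACSF2 585 ± 15.5 with FOXA1 siRNA and 810.0 ± 11.2 with control siRNA (SD, n = 3 each). Of 12 further tested genes for uptake, activation and binding, 2 rose and 5 fell. Synthesis (a change of 1.31%), desaturation (-1.81%), electron transfer (3.32%) and peroxisomal oxidation (-5.05%) overlapped between the groups. The desaturation sum leaves out SCD, which averaged 24605 ± 552 with FOXA1 siRNA and 30090.5 ± 395 with control siRNA (SD, n = 3 each) and is given below. Elongation was 6.77% higher without overlap, but its change was -0.244% with equal library totals. These sums follow their most abundant genes and were not tested.

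**Figure D4:**
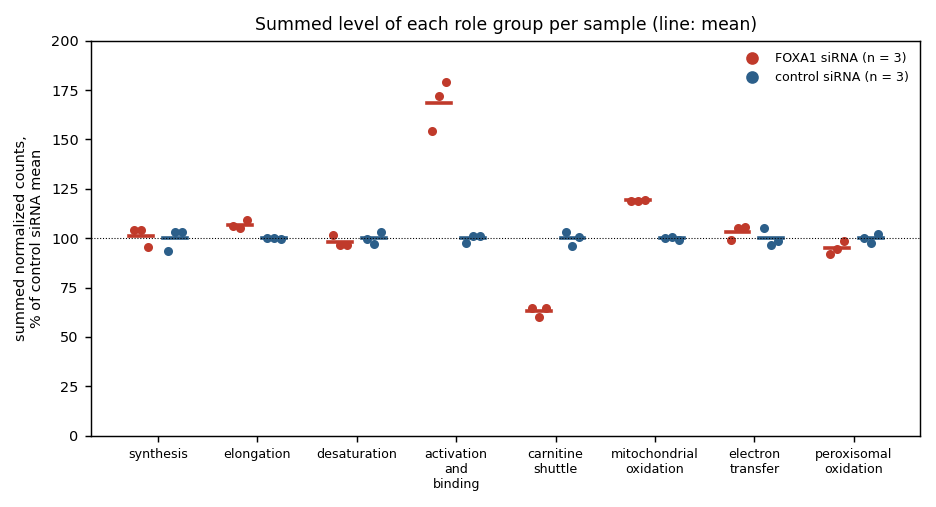
Summed normalized counts of each role group, as a percentage of the control siRNA mean (vertical axis), with a point for each FOXA1 siRNA and control siRNA sample (n = 3 each) and lines for means. The carnitine shuttle lies far below the controls, activation and binding far above, and mitochondrial oxidation above them with little spread.

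Fold changes in these data moved with expression level. Over all genes tested, the median log2 fold change was -0.16 for genes with a mean of 10 to 100, -0.03 from 100 to 500, 0.06 from 500 to 1000, 0.09 from 1000 to 3000 and 0.19 above 3000. Of the genes whose mean was at least 500, 42.8% rose and 23.8% fell. Of the 38 genes, 17 had a mean under 500, and of those 4 rose (23.5%) and 8 fell (47.1%). Over all genes with a mean under 500, 16.7% rose and 25.8% fell. Of the other 21, 10 rose (47.6%) and 2 fell (9.52%). The part of level in these calls was not tested. The 8 falls under 500 and the 10 rises of at least 500 had the sign of the median of their range. The 4 rises under 500 and the 2 falls of at least 500 did not. Of these, CPT1A, with a mean over the 6 samples of 931, fell among genes (500 to 1000) whose median was 0.06. ELOVL7, with a mean of 233, rose among genes (100 to 500) whose median was -0.03. FASN, ACLY and ACADVL, the 3 genes above 3000, had changes of -0.01, -0.10 and 0.04 where the median of that range was 0.19. After cyclic loess normalization, which removes such a trend and was chosen after the data were seen, 11 of the 38 genes were higher and 10 lower.

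**Figure D5:**
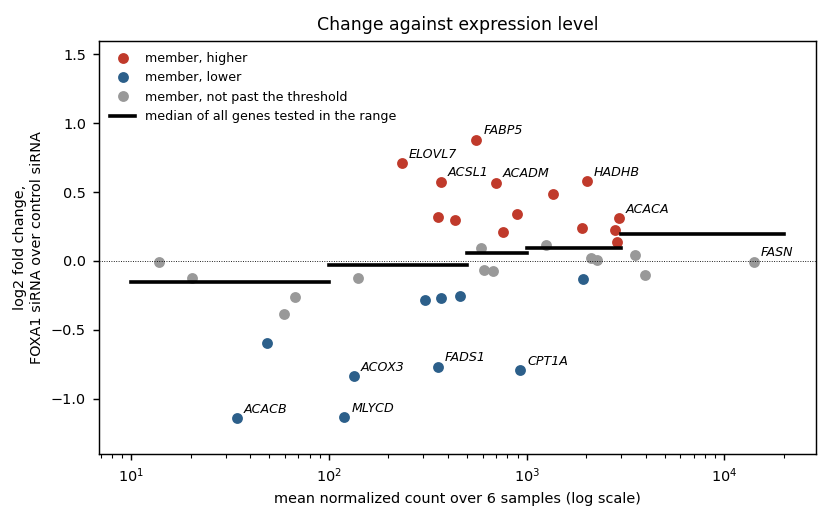
Log2 fold change (FOXA1 siRNA over control siRNA, vertical axis) against the mean normalized count over the 6 samples (horizontal log axis) for the 38 tested genes, with the median of all genes tested in each range as a black line. The genes that fell lie mostly at low means, CPT1A being an exception with ETFA, and the line climbs from -0.16 to 0.19.

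Other genes of fatty acid metabolism were taken from lists that hold 141 genes, of which 121 were tested, 31 rose (25.6%) and 39 fell (32.2%), with a median log2 fold change of -0.0092. Over all genes tested these shares were 26.8% and 25.0%, so the rises lay near the background, and the counts of the single lists below are descriptions to be read against it. For synthesis and desaturation 3 rose and 2 fell of 9. SCD, the delta-9 desaturase that makes oleate, had 24546, 24086 and 25184 normalized counts in the FOXA1 siRNA samples, against 29657, 30185 and 30429 in the control siRNA samples. SCD was lower in all 3 knockdown samples (log2 fold change -0.29 ± 0.04, limma adjusted p = 7.26e-07). ME1, which supplies NADPH for synthesis, passed narrowly as lower (-0.15 ± 0.06), and MECR (0.26 ± 0.10) and MCAT (0.21 ± 0.08), of the separate mitochondrial synthesis pathway, passed as higher. None of these 3 passed in the authors' deposited table (adjusted p = 0.0949, 0.106 and 0.101). Among left-out samples, ME1 did not pass without FOXA1 siRNA replicate 1 or 2 or any single control sample (adjusted p = 0.074 to 0.115), and MECR and MCAT did not without FOXA1 siRNA replicate 1 or 2 or control siRNA replicate 1 or 2 (adjusted p = 0.0575 to 0.121). In elongation, the dehydratases HACD1 (0.50 ± 0.13) and HACD3 (0.33 ± 0.05) rose, and 0 of 5 genes fell.

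For uptake, activation and binding 2 rose and 5 fell of 12. CD36, a fatty acid translocase of the cell surface, had 27.9, 19.7 and 22.5 normalized counts in the FOXA1 siRNA samples, against 142, 122 and 127 in the control siRNA samples. It had the largest change among the genes named from these lists (log2 fold change -2.44 ± 0.20, limma adjusted p = 3.83e-11), with no overlap. CD36 is also expressed by endothelium. All samples here came from the OSC19SSZR line. Of the endothelial markers, CDH5 was lower too, as given above, while PECAM1 and VWF were too low to test. Mean normalized counts with FOXA1 siRNA and with control siRNA were 288 and 554 for CDH5. They were 0 and 0.673 for PECAM1, and 2.02 and 4.99 for VWF. The part of these markers in the fall of CD36 was not tested. SLC27A4, a fatty acid transport protein with acyl-CoA synthetase activity, rose by 0.84 ± 0.08. Among relatives of ACSL1, ACSL3 fell by 0.51 ± 0.05, with 3992 ± 94.3 and 5690 ± 223 normalized counts with FOXA1 siRNA and with control siRNA (SD, n = 3 each), whereas ACSL4, which prefers arachidonic acid, rose by 0.27 ± 0.06. Of 9 acyl-CoA thioesterases, which undo activation, 2 rose and 5 fell, led by ACOT11 (-0.96 ± 0.12) and ACOT1 (-0.69 ± 0.10), while ACOT9 rose (0.49 ± 0.08). ACOT1 has a near-identical neighbour, ACOT2, so its reads are uncertain.

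For mitochondrial oxidation and related breakdown 3 rose and 3 fell of 13. ACAT1, the thiolase of ketone body and isoleucine metabolism, rose by 0.84 ± 0.07 with 946 ± 35.7 and 528 ± 31.2 normalized counts with FOXA1 siRNA and with control siRNA (SD, n = 3 each), and HSD17B10 rose by 0.48 ± 0.07. SLC22A5, which imports carnitine, fell by 0.37 ± 0.09, and PCCB, a subunit of propionyl-CoA carboxylase, by 0.29 ± 0.06. For peroxisomes 3 rose and 8 fell of 18. AMACR, a racemase for branched chains, fell by 0.63 ± 0.09 and CAT, the catalase that removes peroxide made by the oxidases, by 0.51 ± 0.06. The import factors PEX5 (0.55 ± 0.06) and PEX19 (0.44 ± 0.08) rose.

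For storage and release 5 rose and 6 fell of 16. GPAT3, which begins triglyceride synthesis, rose by 1.41 ± 0.13 with 247 ± 6.75 and 92.8 ± 11.5 normalized counts with FOXA1 siRNA and with control siRNA (SD, n = 3 each), and MGLL, monoglyceride lipase, rose by 0.93 ± 0.20. HILPDA, an inhibitor of lipolysis on lipid droplets, fell by 0.96 ± 0.09 and the phosphatidate phosphatase LPIN3 by 0.91 ± 0.11.

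Among 25 tested regulators of lipid genes 4 rose and 7 fell. SREBF1, whose product drives fatty acid synthesis genes, had 4937, 5128 and 4303 normalized counts in the FOXA1 siRNA samples, against 5891, 6562 and 6552 in the control siRNA samples. SREBF1 was lower in all 3 knockdown samples (log2 fold change -0.41 ± 0.06, limma adjusted p = 1.28e-05). The related SREBF2 did not pass (-0.03 ± 0.05), except as lower with equal library totals (-0.13, adjusted p = 0.0488) and after cyclic loess normalization (-0.15, adjusted p = 0.0217). PPARA, a receptor known for inducing oxidation genes in liver, had 375 ± 28.3 and 378 ± 21.6 with FOXA1 siRNA and with control siRNA (SD, n = 3 each) and did not pass, nor did PPARG (0.26 ± 0.25). INSIG2 (-0.69 ± 0.10) and MBTPS2 (-0.61 ± 0.10), which act in SREBP retention and cleavage, fell. The kinase subunit gene PRKAG2 (0.86 ± 0.09) and the coactivator gene PPARGC1B (0.49 ± 0.10) rose. Of 14 sterol targets of SREBP2, 7 rose and 3 fell, among them MVD (0.27 ± 0.07) and LSS (0.27 ± 0.07) as rises and FDFT1 (-0.21 ± 0.06) as a fall. FDFT1 did not pass without FOXA1 siRNA replicate 1, FOXA1 siRNA replicate 3 or control siRNA replicate 3 (adjusted p = 0.0724, 0.0613 and 0.0604).

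In the authors' deposited table, 18 of the 39 genes passed an adjusted p of 0.05, with 13 higher and 5 lower, where 37.0% of the 21657 genes with an adjusted p in that table did. All 18 were among the 24 called with limma, in the same direction. The 6 genes called only with limma were ELOVL5, CPT2, ACAA2, DECR1, ETFA and ECI2, whose adjusted p in the authors' deposited table lay between 0.0583 and 0.0893.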

How the data were processed

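RNA from OSC19SSZR cells was sequenced in 6 samples, 3 with FOXA1 siRNA and 3 with control siRNA, grouped by their titles. The submitters' processing notes name HISAT2 and DESeq2 and list GRCh38 beside GRCm38, with no versions or roles. How reads were counted, and whether by strand, is not given in the sources used here, and 27 of the 39 genes overlap a gene on the opposite strand in GENCODE release 29. Some, FADS2 and ACADM among them, also overlap a gene on their own strand. The deposited signal values are normalized counts, whole reads divided by 1 factor per library (0.843 to 1.32), and 100% were whole multiples of that step to within 0.01 read. The authors deposited beside them, per the file headers, a log2 fold change with its SE, a test score, and p-values. The table has 61862 lines, of which 3 malformed ones were dropped, and no read fell on 27396 genes. Replicates differed by more than sampling noise.

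Genes with a mean of at least 10 were tested on log2(normalized count + 1) with limma 3.58.1 in R 4.3.3 (eBayes with trend and robust), with Benjamini-Hochberg adjustment, a threshold of 0.05 and group as the only term. Fold changes on this scale are understated for low genes. Ratios and sums were computed per sample in Python 3.11.15, ratios with exact permutation tests in scipy 1.17.1. The steps were tested on simulated data. Levels per kilobase used the principal transcript of GENCODE release 29. The genes, lists and tests were chosen with earlier results of these data known. Sample values are given for ACLY, ACACA, FASN, FADS2, CPT1A, HADHA, ACADVL and ETFDH and for up to 2 rises and 2 falls per role with a mean of at least 50. From each further list up to 2 rises and 2 falls are named, with SREBF1, SREBF2, PPARA, PPARG and SCD, and 2 genes that the rule also names are not reported here. Alternatives were pseudocounts of 0.5 and 5, no filter, a mean of at least 50, 3 other normalizations, limma without trend and robust, a replicate block, each sample left out, a threshold of 0.01 and the authors' deposited adjusted p-values.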

Additional observations from a re-analysis of the deposited data

How the results depend on the processing

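All 24 called genes of the 39 kept their direction under 16 alternatives each (15 for ACACB and ACAA2, which a mean of at least 50 leaves out), and 15 of the 24 passed in all of those run. ELOVL5, FADS2, CPT2, ACAD9, HADHA, ACAA2, DECR1, ETFA and ECI2 did not, and ACLY, ELOVL6, SLC25A20 and ETFB passed in some alternatives only. The 10 falls were 5 in the authors' deposited table, 5 at a threshold of 0.01 and 6 to 11 with a sample left out. For synthesis, 2 calls were 1 with a mean of at least 50 (a filter that drops ACACB) and 2 to 3 with a sample left out. For elongation, 2 calls were 1 after quantile or cyclic loess normalization, without trend and robust, in the authors' deposited table, at 0.01, and 1 to 2 with a sample left out. For mitochondrial oxidation, 8 calls were 5 after cyclic loess normalization and 5 at 0.01. For electron transfer, 2 calls were 1 without a filter, without trend and robust, in the authors' deposited table and at 0.01, and 1 to 3 with a sample left out. For peroxisomal oxidation, 2 calls were 1 without trend and robust, in the authors' deposited table and at 0.01, and 1 to 2 with a sample left out. The ratio of FADS3 to FADS2 ranged from -0.0965 to 0.0654 with a sample left out, and was 0.0654 without control siRNA replicate 1. With equal library totals, which moved the median of all genes to -0.093, the sums changed by -0.244% for elongation, -8.24% for desaturation, -41.0% for the carnitine shuttle, 11.3% for mitochondrial oxidation, -3.47% for electron transfer and -11.3% for peroxisomal oxidation. The causes of the changed calls were not tested. The replicate numbers did not pair the samples (correlation of deviations -0.0109 to 0.0109 for equal numbers), and with the replicate block 13 genes were higher and 9 lower, with 1 call for elongation and 1 for electron transfer. The planned edgeR and DESeq2 fits were not run. ACSL5, at a mean of 5.2, could not be judged at this depth.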

Other observations

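The mitochondrial transcripts made up 6.65% to 7.11% of normalized counts in the FOXA1 siRNA samples and 7.19% to 7.68% in the control siRNA samples. PLIN2, a coat protein of lipid droplets, was listed at 4.29, 0.759 and 0 normalized counts in the FOXA1 siRNA samples and at 2.85, 5.04 and 2.09 in the control siRNA samples, and NNT, a mitochondrial transhydrogenase, at 3.22, 9.87 and 11.9 in the FOXA1 siRNA samples and at 12.4, 3.03 and 11.5 in the control siRNA samples. KRT6A was at 178, 72.1 and 64.0 in the FOXA1 siRNA samples and at 50.4, 38.3 and 802 in the control siRNA samples, so that control siRNA replicate 3 stood apart for this keratin.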
